A study of Mus musculus with 12 samples.

Results

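Glucocorticoid and CRH stress signaling genes were followed through TRAP-Seq of ventral hippocampus (vHPC) neurons that project to nucleus accumbens (NAc). The 10 genes were chosen by name, out of 37310 gene identifiers in the counts: the corticosteroid receptors Nr3c1 and Nr3c2, the receptor co-chaperones Fkbp5 and Fkbp4, the glucocorticoid-induced genes Sgk1 and Tsc22d3, the steroid-activating enzyme Hsd11b1, and the CRH receptors Crhr1 and Crhr2 with the CRH-binding protein Crhbp. All 10 had counts in at least some libraries. C57BL/6 mice of both genotypes, whose sex the labels do not give, carried a Cre-dependent GFP-tagged ribosomal protein L10a in the Rosa26 locus and received a retrograde HSV expressing Cre from the hEf1α promoter in NAc, 3 weeks before the vHPC was punched. In WT mice FosB was not floxed, and in KO mice it was floxed (FosB fl/fl), so that the same Cre labeled the ribosomes and cut exons 2 and 3 out of the gene. Tagged ribosomes were pulled down for the TRAP libraries, and the whole homogenate of the same pool gave the input library. The 12 libraries thus form 4 groups of 3 pools, by genotype (WT or KO) and by kind (TRAP or input). A pool held 3 mice by its label and 3 to 4 by the protocol. The Cre vector acts in every NAc-projecting neuron it reaches, in vHPC or elsewhere, so the deletion is not limited to vHPC cells, and an input library holds RNA of all cells of the punch, whether or not the vector reached them.

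Glucocorticoids reach the hippocampus from blood and bind 2 intracellular receptors, the high-affinity mineralocorticoid receptor (MR, Nr3c2) and the lower-affinity glucocorticoid receptor (GR, Nr3c1). Both wait in complexes with HSP90, in which the immunophilin FKBP51 (Fkbp5) lowers and FKBP52 (Fkbp4) supports receptor activity, and both bind glucocorticoid response elements (GREs) in DNA to drive genes such as Fkbp5, Sgk1 and Tsc22d3. CRH starts the hormonal stress response in hypothalamus and also acts inside the hippocampus on CRHR1, while CRHBP holds CRH away from its receptors.

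The depth was 3416030 to 5614089 counts a library (median 4296056). CPM is read counts scaled to the library total, and the levels given below also use TMM normalization. By the library total alone, 3 counts corresponded to 0.534 to 0.878 CPM. The level of Fosb, the targeted gene, was 39.1 ± 6.65 CPM in WT against 23.2 ± 5.46 in KO (SD, n = 3 each) for TRAP, and 25.6 ± 4.11 against 16.0 ± 1.12 for input. It was lower in every KO library than in every WT library of the same kind, with a log2 KO to WT ratio of -0.76 in TRAP (adjusted p = 0.337, edgeR) and -0.68 in input (adjusted p = 1.00), neither of which passed the test. These ratios differed by -0.08 (95% interval -0.71 to 0.54), so that the loss was not shown to be larger in TRAP, and the counts include the exons that the deletion leaves in place. WT input 1 stood apart, with 15678 genes with counts against 17255 to 18090 in the other input libraries. It was also the library with the lowest total, 3416030 counts, and the part of depth in this was not tested. KO TRAP 2 had a summed GABA neuron marker level of 610.3 CPM against 161 to 392 in the other TRAP libraries. The summed level of 7 glutamate neuron markers was 4469 to 4967 CPM in TRAP and 3715 to 4294 in input, which is the cell class the labels name. Astrocyte markers summed to 328 to 401 CPM in TRAP and 2001 to 2446 in input.

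GRE letters were searched in the member promoters, because Fkbp5, Sgk1 and Tsc22d3 are the members by which glucocorticoid action is usually read. The stretches shown were chosen because they hold matches, and the 1 Fkbp5 promoter held none. RefSeq promoters (GRCm38.p6, 250 bases before to 50 after a start site) matched 9 of the 10 members with 16 promoters. The full GRE, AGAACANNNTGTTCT, was found in 1 of these 16 and in 3 of 32851 promoters of all genes (0.00913%), searched on both strands. That promoter is the fifth of 6 for Sgk1. Its arm AGAACA, which the full GRE contains in both directions, was found in 4 of the 16 promoters, all of Sgk1 or Tsc22d3, and in 19.0% of all promoters. The following stretches run 5′ to 3′ from 250 to 151 bases before the start site, at chr10:21993640-21993739 on the plus strand for Sgk1 and chrX:140600673-140600772 on the minus strand for Tsc22d3. Capitals mark the arms and, in Sgk1, the full GRE.
Sgk1, start 5: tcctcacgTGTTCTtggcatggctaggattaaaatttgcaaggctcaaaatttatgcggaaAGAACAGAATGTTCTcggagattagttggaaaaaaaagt
Tsc22d3, start 3: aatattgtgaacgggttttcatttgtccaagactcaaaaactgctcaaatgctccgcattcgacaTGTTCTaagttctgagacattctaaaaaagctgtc
The full GRE lies 189 to 175 bases before the fifth Sgk1 start. The AP-1 site TGANTCA, the sequence that FosB dimers bind, was in 0 of the 16 member promoters and 7.81% of all promoters, and the CRE TGACGTCA, bound by CREB, was in 0 of 16 and 1.79%. A match is only a run of letters, and the counts are summed over all starts of a gene, so they do not show which start was used.

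The first question was how much of each transcript the NAc-projecting neurons and the surrounding tissue carried. Levels were compared between genes per kilobase of exon (RPKM), over 6 TRAP and 6 input libraries. Fkbp4 was highest in both, at 59.7 ± 6.29 RPKM (SD, n = 6) in TRAP and 48.2 ± 4.51 in input, and Nr3c2 was next, at 17.9 ± 3.04 and 22.9 ± 2.61. In TRAP, Fkbp5 followed at 15.6 ± 1.31, Nr3c1 at 9.53 ± 1.10, Sgk1 at 8.23 ± 1.44 and Tsc22d3 at 5.48 ± 1.28. In input, Nr3c1 at 14.1 ± 0.622 was next, ahead of Tsc22d3 at 12.2 ± 1.16, Fkbp5 at 11.4 ± 1.21 and Sgk1 at 9.80 ± 1.71. The ranges of Nr3c2 and Fkbp5 overlapped in TRAP, as did those of Nr3c1 and Sgk1 and of Sgk1 and Tsc22d3. In input, the ranges of each neighboring pair from Nr3c1 down to Crhbp overlapped. The CRH genes and Hsd11b1 were low. In TRAP, Crhr1 was at 1.76 ± 1.02 RPKM, Crhbp at 1.16 ± 1.07, Hsd11b1 at 1.01 ± 0.467 and Crhr2 at 0.0653 ± 0.0592, and the ranges of Crhr1, Crhbp and Hsd11b1 overlapped. In input, Crhbp at 6.13 ± 1.36 was above Hsd11b1 at 1.66 ± 0.326 in all libraries, and Crhr1 was at 1.45 ± 0.514 and Crhr2 at 0.316 ± 0.284.

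**Figure D1:**
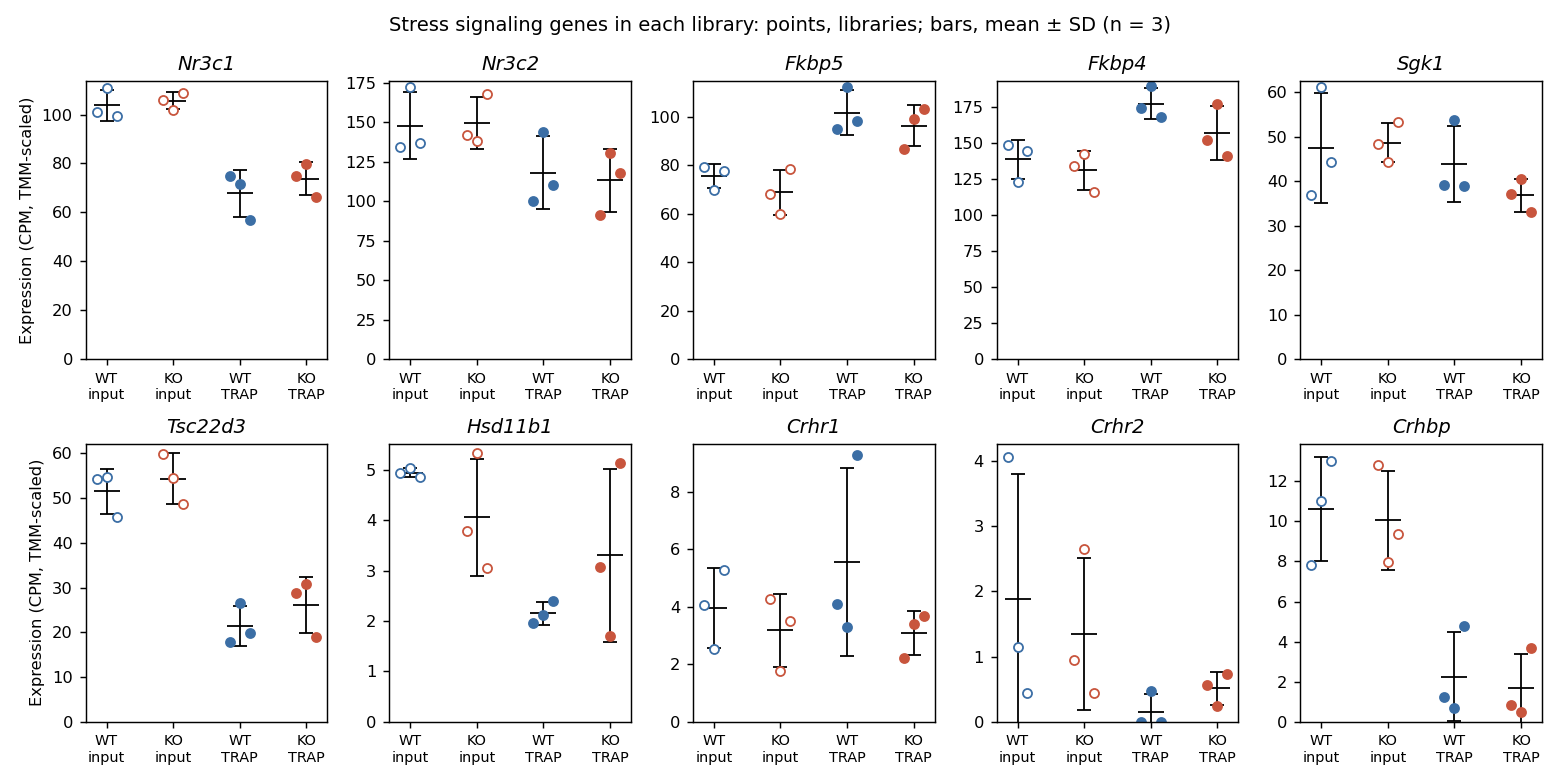
Expression of the 10 genes in each of 12 libraries, in CPM scaled by TMM on a linear axis from 0, with WT in blue, KO in red, open points for input and filled points for TRAP. Horizontal marks and bars are the mean ± SD of 3 pools. In Nr3c1, Tsc22d3 and Crhbp all TRAP points lie below all input points, in Fkbp5 they lie above, and WT and KO points overlap in every panel.

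TRAP was compared with input to ask which of these transcripts were enriched on the ribosomes of NAc-projecting neurons. In the fit of all 12 libraries, 6 of the 9 genes tested passed the test. Fkbp5 and Fkbp4 were higher in TRAP, and Nr3c1, Nr3c2, Tsc22d3 and Crhbp were lower. The background is high: of 13214 genes tested, 42.2% passed, 19.6% higher and 22.5% lower in TRAP. The members' median log2 TRAP to input ratio was -0.36, beside -0.01 over all genes tested. Crhr2 did not pass the filter on low counts. Hsd11b1 and Crhbp passed it through input alone, where their mean levels were higher, so their direction was partly set by the filter and they add no support to these counts. Of the 7 members that passed the filter within each kind, 2 were higher and 3 lower, with a median of -0.26. In bulk samples, fewer cells of a type and less RNA per cell cannot be told apart.

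Nr3c1 (mm9 chr18:39570199-39650955, minus strand), the glucocorticoid receptor, had TRAP levels of 75.0, 71.4 and 56.8 CPM in WT pools 1 to 3 and of 75.0, 79.9 and 66.4 CPM in KO pools 2 to 4. Its input levels were 101, 111 and 99.4 CPM in the WT pools and 106, 102 and 109 in the KO pools. Values of the other genes are given in this pool order. Every TRAP library was below every input library, as 12.6% of all genes tested were. The log2 TRAP to input ratio was -0.56 (SE 0.09, adjusted p = 1.65e-05, edgeR), between -0.80 and -0.35 in the 6 pools. It was -0.61 (SE 0.13) in WT and -0.52 (SE 0.13) in KO.

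Nr3c2 (mm9 chr8:79423341-79768911, plus strand), the mineralocorticoid receptor, had TRAP levels of 99.9, 144 and 109.9 CPM in WT pools and 91.2, 130.4 and 118 in KO pools. The input levels were 134, 172 and 137 CPM for WT and 142, 138 and 168 for KO. Pool 2 of WT was highest in both kinds, and the TRAP and input ranges overlapped. The log2 ratio was -0.36 (SE 0.10, adjusted p = 0.00658, edgeR), and TRAP was below input in 6 of 6 pools. Without KO pool 4 the ratio was -0.31 and no longer passed (adjusted p = 0.0506). Nr3c2 shares 247 exon bases with Gm10649 on the other strand.

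The balance of the receptors, which sets how a cell reads low and high hormone, was taken as the log2 RPKM ratio of Nr3c2 to Nr3c1 within each library. In TRAP it was 0.61, 1.21 and 1.15 for WT pools and 0.48, 0.90 and 1.03 for KO pools. The input ratios were 0.61, 0.84 and 0.66 for WT and 0.61, 0.64 and 0.82 for KO. Nr3c2 was therefore the higher of the pair in all 12 libraries. TRAP minus input was between -0.13 and 0.49, with 5 of 6 pools higher in TRAP, although both values of WT pool 1 are 0.61 to 2 decimals. The mean difference of 0.20 did not pass an exact two-sided sign-flip test (p = 0.09375, 0.2812 after adjustment over 6 tests). With so few pools no adjusted value in this family of 6 could have reached 0.05, so the adjusted values do not speak to the size of a difference.

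Fkbp5 (mm9 chr17:28536040-28654469, minus strand), which encodes FKBP51 and is induced by GR in many tissues, had TRAP levels of 94.7, 112 and 98.2 CPM in WT pools and 86.7, 98.9 and 103 in KO pools. Input gave 79.3, 69.9 and 77.6 CPM for WT and 68.2, 59.7 and 78.2 for KO. All TRAP libraries were above all input libraries, which held for 9.88% of genes tested. The log2 ratio was 0.46 (SE 0.09, adjusted p = 0.000283, edgeR), between 0.26 and 0.72 in the pools.

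Fkbp4 (mm9 chr6:128379753-128388695, minus strand), which encodes FKBP52, had TRAP levels of 174, 189 and 168 CPM in WT pools and 152, 177 and 141 in KO pools. Input levels were 148, 123 and 144 CPM for WT and 134, 142 and 116 for KO. TRAP was above input in 6 of 6 pools, although the ranges overlapped, and the log2 ratio was 0.31 (SE 0.08, adjusted p = 0.00403, edgeR). The log2 RPKM ratio of Fkbp5 to Fkbp4 ran from -2.05 to -1.63 in TRAP and from -2.43 to -1.75 in input. It was higher in TRAP in 6 of 6 pools, by 0.15 on average, with an exact sign-flip p of 0.031, which is the smallest that 6 pools can give, and 0.1875 after adjustment over 6 tests.

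**Figure D2:**
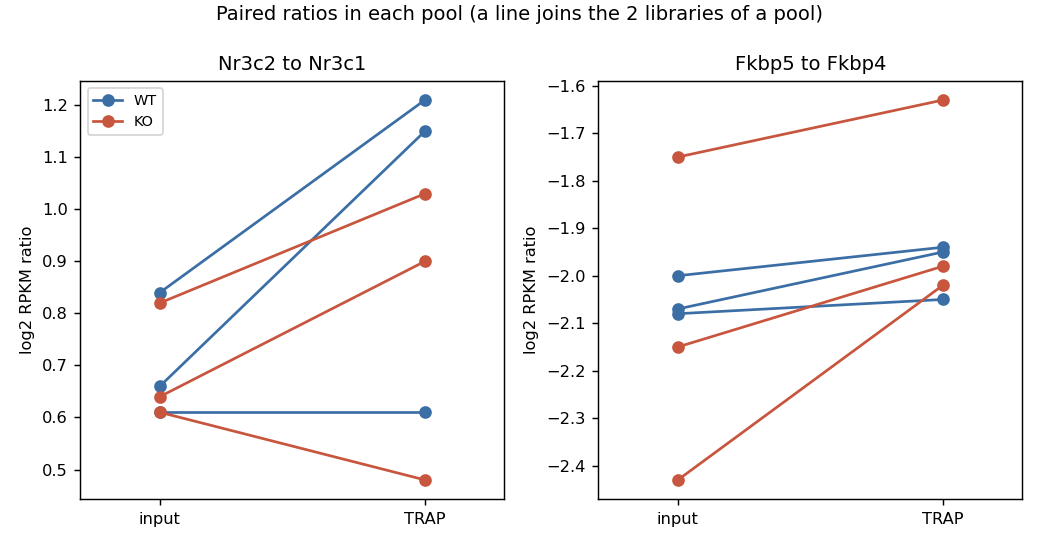
The log2 RPKM ratio of Nr3c2 to Nr3c1 (left) and of Fkbp5 to Fkbp4 (right) in input and TRAP, with a line joining both libraries of a pool, WT in blue and KO in red. The vertical axes do not start at 0 and differ between panels. The Fkbp5 to Fkbp4 lines go up in 6 of 6 pools by 0.03 to 0.41, and the Nr3c2 to Nr3c1 changes run from -0.13 to 0.49.

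Sgk1 and Tsc22d3, both classical GR targets, differed in what they showed. Sgk1 (mm9 chr10:21601990-21719709, plus strand), a kinase that acts on ion channels and carriers, had TRAP levels of 39.1, 53.8 and 38.8 CPM in WT pools and 37.1, 40.4 and 33.0 in KO pools. Input gave 36.9, 61.1 and 44.3 CPM for WT and 48.3, 44.4 and 53.2 for KO. The ranges overlapped, and the log2 ratio of -0.26 (SE 0.13, adjusted p = 0.114, edgeR) did not pass, with a 95% interval of -0.53 to 0.01. Tsc22d3 (mm9 chrX:137074067-137135198, minus strand), which encodes the anti-inflammatory leucine zipper protein GILZ, had TRAP levels of 17.8, 26.5 and 19.9 CPM in WT pools and 28.7, 30.7 and 19.0 in KO pools. Its input levels were 54.3, 54.7 and 45.8 CPM for WT and 59.9, 54.6 and 48.6 for KO. All TRAP libraries were below all input libraries, with a log2 ratio of -1.16 (SE 0.14, adjusted p = 1.18e-07, edgeR). Of the 75-base exon stretches of Tsc22d3, 7.65% had another place in mm9 at up to 2 mismatches, against 1.94% for Fkbp4, 1.37% for Sgk1 and 0 for the other 7 genes. Across the 12 libraries, the genes whose pattern was most like that of Tsc22d3 were Gjb6 (Pearson r = 0.99) and Aqp4 (r = 0.98), both known from astrocytes. For Sgk1 they were Luzp1 and Tax1bp1 (r = 0.90 for both). The 12 libraries share the split into TRAP and input, so genes clearly lower in TRAP resemble each other whatever their cell type. The part of astrocytes in the Tsc22d3 ratio was not tested.

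Hsd11b1 (mm9 chr1:195047824-195090248, minus strand), whose enzyme regenerates active corticosterone inside cells, had 7 to 24 counts per library. TRAP levels were 1.95, 2.11 and 2.39 CPM for WT and 3.07, 1.71 and 5.13 for KO. Input levels were 4.94, 5.04 and 4.85 CPM for WT and 3.79, 5.33 and 3.05 for KO. The 3 WT TRAP libraries were below the WT input libraries, whereas KO pool 4 had more in TRAP than in its own input. The log2 ratio of -0.74 (SE 0.38, adjusted p = 0.120, edgeR) did not pass the test.

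Crhbp (mm9 chr13:96201326-96214786, minus strand), which in hippocampus is known from subsets of interneurons, had the lowest TRAP to input ratio of the tested members. TRAP levels were 1.24, 0.705 and 4.78 CPM for WT and 0.836, 0.487 and 3.66 for KO, from 2 to 18 counts. Input gave 7.84, 11.0 and 13.0 CPM for WT and 12.8, 7.99 and 9.37 for KO. WT pool 3 and KO pool 4 were the highest TRAP libraries, and all TRAP libraries were below all input libraries. The log2 ratio was -2.43 (SE 0.41, adjusted p = 3.73e-05, edgeR), and -3.09 without KO pool 4. With 2 to 18 counts Crhbp did not pass the filter within TRAP and was tested only because of its input level. Of the 7 GABA neuron markers that passed the filter within each kind, 6 were lower in TRAP and the median log2 ratio was -1.66. The summed level of all 8 listed GABA neuron markers was 263 CPM in WT TRAP 3 and 161 in KO TRAP 4, the libraries with most Crhbp. It was 610.3 in KO TRAP 2, where Crhbp was at 0.836. The part of these cells in the Crhbp ratio was not tested.

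Crhr1 (mm9 chr11:103994169-104036837, plus strand), the main CRH receptor of forebrain, had TRAP levels of 4.09, 3.29 and 9.29 CPM in WT pools and 2.23, 3.41 and 3.66 in KO pools. Input levels were 4.06, 2.52 and 5.29 CPM for WT and 4.26, 1.78 and 3.49 for KO. WT TRAP 3 was the highest library, and the ranges overlapped. The log2 TRAP to input ratio was 0.22 (SE 0.39, adjusted p = 0.684, edgeR), with a 95% interval of -0.58 to 1.03, which holds ratios on both sides of 0. Crhr2 (mm9 chr6:55040043-55083010, minus strand), the receptor for urocortins, had 0, 2 and 0 counts in WT TRAP, 2, 1 and 3 in KO TRAP, 14, 5 and 2 in WT input and 4, 12 and 2 in KO input. A count of 0 allows up to 0.534 CPM in WT TRAP 1 and 0.805 in WT TRAP 3, by the library total without TMM. Summed over libraries, 8 counts in TRAP and 39 in input gave a ratio of 0.207, with an exact 95% interval of 0.0835 to 0.449 that covers counting error only. WT input 1 and KO input 3 gave 14 and 12 of the 39 input counts.

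**Figure D3:**
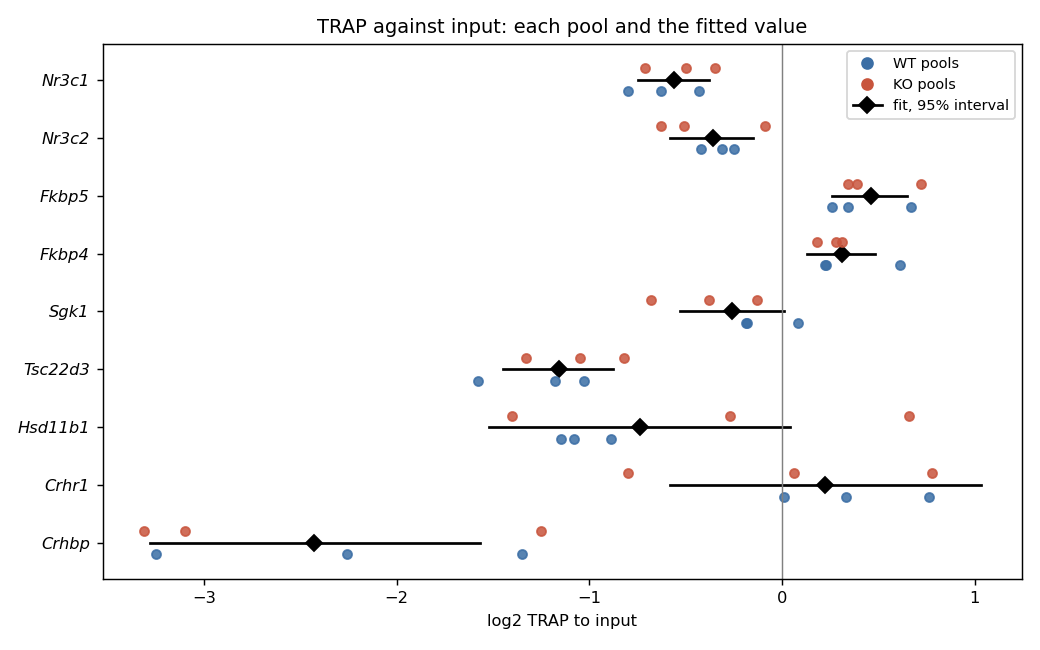
Log2 TRAP to input ratio of the 9 tested genes. Colored points are single pools, from log2(CPM + 0.5), and black diamonds with lines are the edgeR value and its 95% interval. The intervals of Fkbp5 and Fkbp4 lie above 0, those of Nr3c1, Nr3c2, Tsc22d3 and Crhbp lie below, and those of Sgk1, Hsd11b1 and Crhr1 include 0.

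Markers of other cell types moved with this comparison. All 8 astrocyte markers passed the filter within each kind and were lower in TRAP (median log2 ratio -3.02), as were the 6 such oligodendrocyte markers (-3.12) and the 1 such endothelial or mural marker (-1.51). The other 2 oligodendrocyte markers, 7 of 7 microglia markers and 3 endothelial or mural markers were tested through their input level alone, so that their direction was largely set by the filter. Microglia markers summed to 3.05 to 13.7 CPM in TRAP and 67.3 to 126 in input. Glutamate neuron markers had 4 of 7 higher and a median of 0.23. Of the 3 CA1 and subiculum markers that passed the filter within each kind, 2 were higher and 0 lower (median 1.16). Another 2 were tested through input alone, and over all 5 tested, 2 were higher and 1 lower (median 0.21). Of the dentate gyrus, CA2 and CA3 markers, 1 of the 7 tested was higher and 3 lower (-0.73). Mitochondrial transcripts took 0.0305% to 0.130% of counts in TRAP and 5.29% to 9.05% in input. The ratios of Nr3c1, Nr3c2 and Tsc22d3 were closer to 0 than the astrocyte and oligodendrocyte medians. The most alike genes of Nr3c1 were Mcc (r = 0.99) and Ppap2b (r = 0.98), those of Crhbp were Trf and Gatm (r = 0.96 for both), and those of Fkbp4 were Aamp and Puf60 (r = 0.97 for both), over 12 libraries that share the split into TRAP and input. The part of cell composition in these ratios was not tested.

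Genes that surround the members in the pathway were read from 4 lists. Of 20 receptor chaperones and cofactors, 9 were higher in TRAP and 4 lower, with a median log2 ratio of 0.13, where 19.6% of all genes tested were higher and 22.5% lower. The higher ones with the largest ratios were the chaperone Hspa8 (0.76, SE 0.08), the HSP70 and HSP90 organizing protein Stip1 (0.66, SE 0.07) and the ubiquitin ligase Stub1 (0.64, SE 0.09), and both HSP90 genes were higher, Hsp90aa1 by 0.57 and Hsp90ab1 by 0.52. The lower ones included the acetyltransferases Crebbp (-0.60) and Ep300 (-0.55) and the mediator subunit Med1 (-0.47).

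Of 22 glucocorticoid-responsive genes, 21 were tested, and 7 were higher and 7 lower in TRAP, with a median of 0.01. Of the 19 that passed the filter within each kind, 7 were higher and 5 lower, beside the same 19.6% and 22.5% of all genes. The cell cycle inhibitor Cdkn1a (1.71, SE 0.32), the small GTPase Rasd1 (0.98, SE 0.22) and the transcription factor Cebpb (0.89, SE 0.24) had the largest ratios. The sulfotransferase Sult1a1 (-2.81, SE 0.52), the glutamine synthetase gene Glul (-2.63, SE 0.08), which marks astrocytes, and the metallothionein gene Mt2 (-2.61, SE 0.13) had the lowest. Of 14 genes of steroid metabolism and other steroid receptors, 10 were tested, 0 were higher and 3 lower: the drug exporter Abcb1a of the blood-brain barrier (-4.03), the mitochondrial protein gene Tspo (-3.39) and H6pd (-1.07), which supplies NADPH to the Hsd11b1 enzyme. Abcb1a and Tspo, like Sult1a1, were tested through their input level alone. Of 15 genes for CRH family ligands, related peptides and receptors, 8 were tested. The stimulatory G protein gene Gnas (0.60, SE 0.12) was higher, and the PACAP receptor gene Adcyap1r1 (-1.20, SE 0.13) and Creb1 (-0.40, SE 0.10) were lower.

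**Figure D4:**
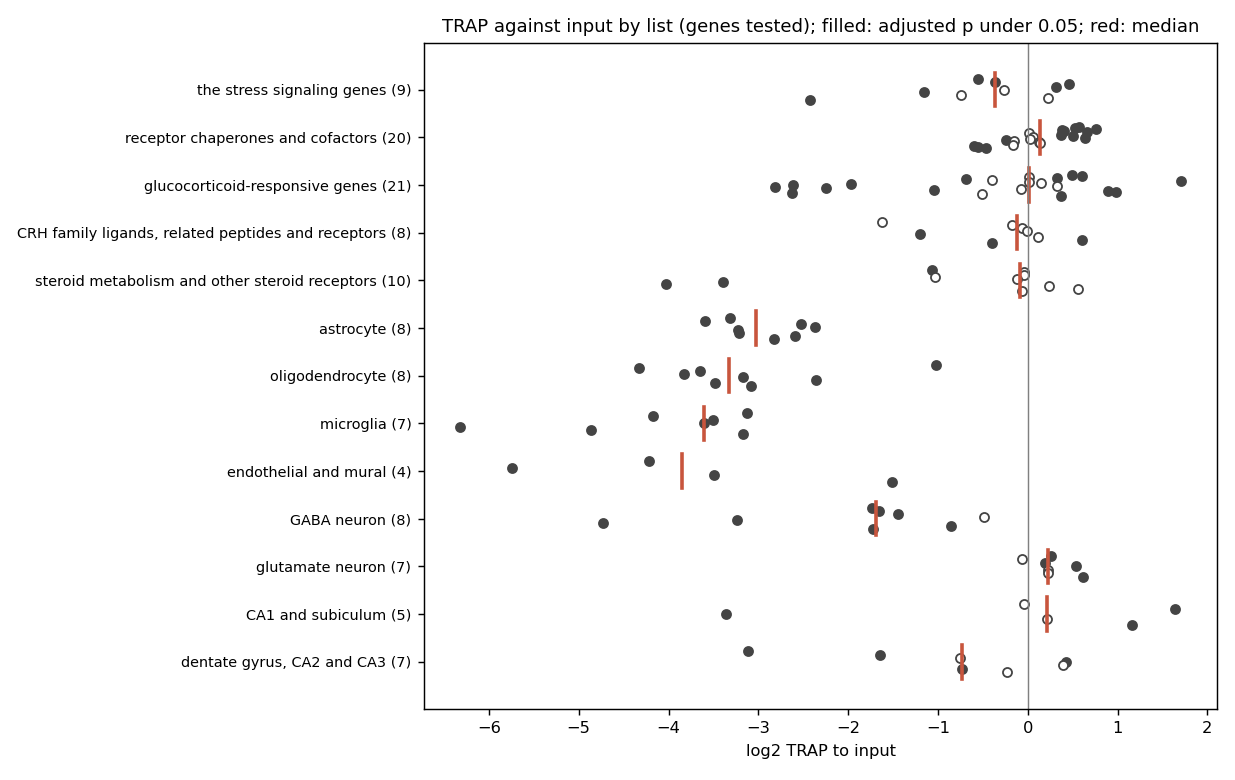
Log2 TRAP to input ratio of single genes in the members, 4 pathway lists and 8 cell type lists, with the number of genes tested in parentheses. Filled points passed the test, open points did not, and red lines are medians. The members span -2.43 to 0.46, the chaperones and cofactors -0.60 to 0.76, and all tested astrocyte, oligodendrocyte and microglia markers lie below 0, the microglia markers having been tested through their input level alone.

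The ligands of the CRH receptors were chosen for description after their values were seen. Crh had 0 to 20 counts in TRAP and 5 to 56 in input, with the most in WT input 1 (16.3 CPM), and its log2 ratio of -1.62 (SE 0.86, adjusted p = 0.152, edgeR) did not pass, its direction being partly set by the filter, which it passed through input alone. Ucn3, a ligand of CRHR2, had 25 counts in KO TRAP 2 (6.97 CPM) and at most 4 in any other library. Ucn had 12 counts in KO TRAP 4 (2.93 CPM) and at most 3 in any other. Ucn2 had 0 counts in all 12 libraries. KO TRAP 2 was also the TRAP library with the most Crh and the highest GABA neuron marker sum, and the relation of these was not tested.

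KO was compared with WT to ask whether loss of FosB changed these genes. None of the members passed the test, in the 7 tested in TRAP or the 9 tested in input (edgeR), and 0 had an unadjusted p under 0.05 in either. DESeq2 also called 0 in both. The background is low, with 0.0682% of 11727 genes called in TRAP, and 0.00780% of 12816 called higher and 0.0234% called lower in input. WT and KO levels overlapped in all 10 members in both kinds of library. Of all genes tested, 11.9% in TRAP and 8.38% in input did not overlap, shares too low to set so few members apart. These shares cover tested genes only, which include 7 members in TRAP and 9 in input. Endothelial and mural markers summed to 1.59 to 3.20 CPM in the WT and 6.10 to 8.64 CPM in the KO TRAP libraries, low levels that did not overlap and whose part in the KO to WT ratios was not tested. Of the 7 GABA neuron markers tested in TRAP, Npy had a log2 KO to WT ratio of -1.35 (95% interval -1.89 to -0.81) that edgeR did not call (adjusted p = 0.0618) and DESeq2 did, and DESeq2 called no other marker of the 8 cell type lists in TRAP or input. The median ratio of the GABA markers was -0.11, and their part was not tested either.

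With 3 pools per group, the intervals give a range for each ratio. Unlike the calls, they are not adjusted over all genes tested. Fosb was not called in TRAP although its interval was -1.19 to -0.33. In TRAP, the log2 KO to WT ratio was 0.12 for Nr3c1 (95% interval -0.18 to 0.42), -0.06 for Nr3c2 (-0.37 to 0.25), -0.08 for Fkbp5 (-0.33 to 0.18) and -0.18 for Fkbp4 (-0.40 to 0.05). Sgk1 was at -0.25 (-0.62 to 0.11) and Tsc22d3 at 0.29 (-0.20 to 0.78). Crhr1 had the widest interval, -0.81 (-1.93 to 0.31), and its value was -0.25 without WT pool 3. Hsd11b1, Crhr2 and Crhbp did not pass the default filter in TRAP. Where other settings admitted them, Hsd11b1 was at 0.62 (adjusted p = 0.908) and Crhbp at -0.34 (adjusted p = 0.964) in a joint edgeR fit of 12 libraries, and Crhr2 was at 1.57 (adjusted p = 0.845, edgeR) with no filter. Their TRAP levels in WT and KO were 2.15 ± 0.220 and 3.30 ± 1.72 CPM for Hsd11b1 and 2.24 ± 2.21 and 1.66 ± 1.74 CPM for Crhbp (SD, n = 3 each). In input the ratios were between -0.32 (Crhr1, -1.44 to 0.80) and 0.08 (Tsc22d3, -0.25 to 0.41), with Nr3c1 at 0.03 (-0.23 to 0.28) and Nr3c2 at 0.02 (-0.25 to 0.29). The receptor ratio Nr3c2 to Nr3c1 differed between KO and WT by -0.19 in TRAP (p = 0.5) and -0.01 in input (p = 0.8), and the ratio Fkbp5 to Fkbp4 by 0.10 (p = 0.8) and -0.06 (p = 0.7), by exact two-sided permutation tests, which cannot go below 0.1 with 3 pools against 3.

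**Figure D5:**
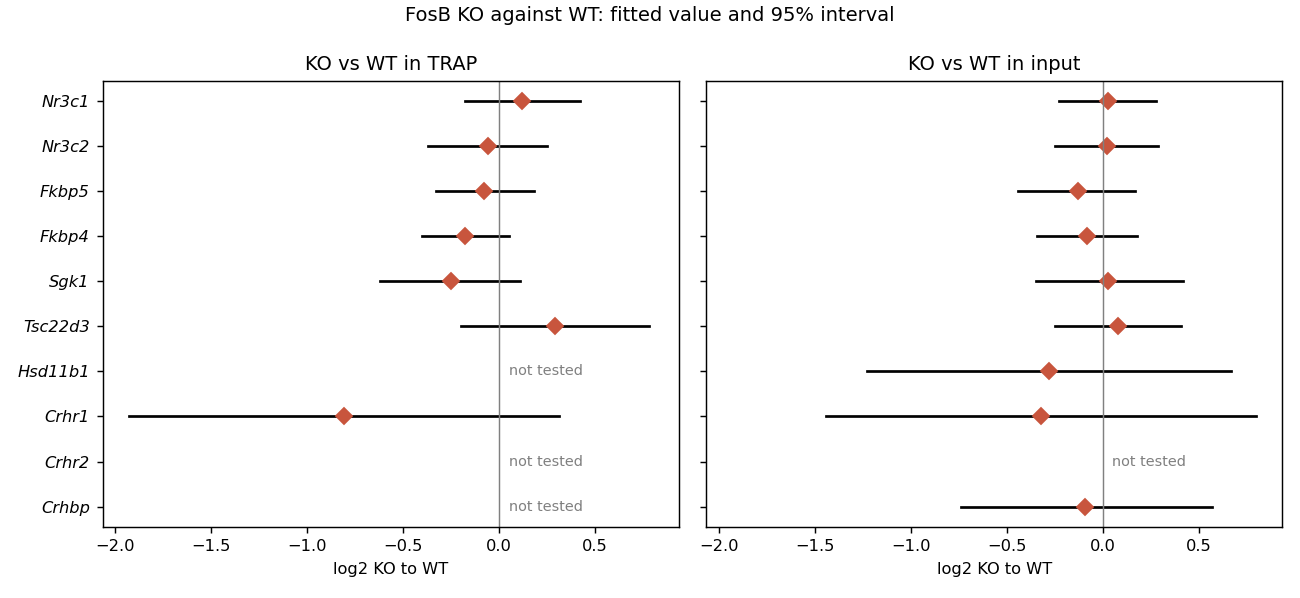
Log2 KO to WT ratio of the members in TRAP (left) and input (right), as the edgeR value (diamonds) with its 95% interval (lines), for the 7 and 9 genes tested. All intervals include 0, and those of Crhr1 are the widest.

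The KO effect was also compared between TRAP and input directly, in the fit of all 12 libraries. Of the 9 members tested 0 were called (edgeR; 0 by DESeq2), 0 had an unadjusted p under 0.05, and 0.00757% of 13214 genes were called. The differences ran from -0.49 for Crhr1 (95% interval -2.10 to 1.11) to 0.90 for Hsd11b1 (-0.66 to 2.46). Single pools moved both, Hsd11b1 to 0.25 without KO pool 4 and 1.45 without KO pool 3, and Crhr1 to -0.06 without KO pool 2 and -0.86 without KO pool 3. In the 4 pathway lists, 0 of 52 genes tested in TRAP, 0 of 59 in input and 0 of 59 in this difference were called (edgeR, and 0 by DESeq2). An unadjusted p under 0.05 was found for 8, 3 and 3 genes. Of the 8 in TRAP, 7 had log2 ratios below 0, from -0.90 for Arrdc2, Cebpb at -0.65, Mt2 at -0.56, Mt1 at -0.48, Glul at -0.31 and Hsp90aa1 at -0.28 to -0.18 for Hsp90ab1, and H6pd was at 1.31. These were named after their values were seen, and 6.05% of all genes tested in TRAP, 2.89% in input and 2.71% in the difference had such a p. Of 8 astrocyte markers, 6 had a log2 KO to WT ratio below 0 in TRAP and 2 above. Their median was -0.11 (-1.57 to 0.23), 0 were called, and their part in the pathway list ratios was not tested.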

How the data were processed

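The authors deposited raw counts per gene for each of 12 libraries (SMARTer stranded total RNA kit). By the paper and the submitters' processing notes, reads were mapped to mm9 with TopHat and counted with HTSeq-count against Gencode vM1, and DESeq2 was named for differential expression. Versions and the strand setting of the counting are not given in the sources used here, so antisense overlap cannot be separated. All 37310 identifiers matched Gencode vM1. Reads on no gene (20.6% to 27.1% of unique alignments) and ambiguous reads (2.11% to 2.56%) stayed out of totals and tests.

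The 10 members, the pathway lists and the marker lists were chosen with earlier results of these data known. Groups came from the sample titles, where a title that does not say input was taken to be TRAP. P-values rest on the spread between libraries or pools of several mice, not between single animals. In edgeR this spread is moderated over all genes, and the main TRAP against input fit leaves the libraries of a pool unpaired.

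Counts were tested with edgeR 4.0.16 in R 4.3.3 (default expression filter by group, TMM, robust quasi-likelihood test), with Benjamini-Hochberg adjustment over all genes tested and a threshold of 0.05. KO was compared with WT within TRAP and within input, and TRAP with input in 1 fit of 4 groups. The SE is the log2 value divided by the square root of F, and intervals are 95%. CPM is scaled by TMM over the 12 libraries, and RPKM divides it by exon length. Both libraries of a pool come from the same mice, so numbers pair TRAP with input within a genotype. The correlations of their deviations from group means were 0.085 to 0.176 over 8716 genes. WT and KO pools with the same number are different mice.

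Ratios within a library used RPKM and exact permutation or sign-flip tests. The planned Crhr1 to Crhbp ratio was not run, because the lowest count of these genes in a library was 2, under the minimum of 3. Likeness is Pearson r of log2(CPM + 0.5) over 12 libraries, given with no test, for the 2 genes with the highest r. The text names all members, at most 3 called genes at each end of a list in TRAP against input, every pathway list gene called between KO and WT by edgeR (0), and Fosb. The other chaperones, the ligands, Npy and the list genes with unadjusted p were named after their values were seen. Protein sequences were not used here. Exon stretches were aligned to mm9 with minimap2.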

Additional observations from a re-analysis of the deposited data

How the results depend on the processing

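Alternatives were RLE factors, library totals, no filter beyond 1 count, a mean of at least 10 counts, DESeq2, a replicate block, a joint fit of 12 libraries for KO against WT, each pool left out in turn and, chosen after seeing the data, WT pool 1 and KO pool 2 left out together. The last was run for TRAP against input and for the difference of KO effects. No member was called between KO and WT, or in that difference, under any alternative run for it. In TRAP against input, 6 members passed under every setting that keeps all libraries except the lowest filter, where Crhr2 was tested and made 7 (log2 -2.36, adjusted p = 0.0345, edgeR). Without both doubted pools 5 passed, as Nr3c2 was lost (log2 -0.28, adjusted p = 0.0516). Crhr2 passed the filter without WT pool 2, WT pool 3, KO pool 2 or KO pool 4, at log2 -3.79 to -2.39, and was called in all of these but the one without KO pool 2 (adjusted p = 0.0513). With at most 3 counts in a TRAP library, Crhr2 passed there through input alone. Its direction was largely set by the filter, and these calls add no support. With the replicate block, the paired fit, the same 6 members were called in TRAP against input.

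Genes called between KO and WT in TRAP were 8, with 41 under the lowest filter, 18 by DESeq2 and 5 to 20 with a pool left out (20 without WT pool 1, 19 without WT pool 2, 14 without KO pool 2 and 5 without KO pool 3). In input they were 4, with 19 under the lowest filter, 8 by DESeq2, 20 with the replicate block, 7 in the joint fit and 1 to 5 with a pool left out (1 without WT pool 3 or KO pool 2, 2 without WT pool 2 or KO pool 3). WT and KO pools of one number are different mice, whose deviations from the group means correlated at -0.125 to 0.068, so that this block joins only a number. The difference of KO effects had 1, with 0 to 1 with a pool left out (1 only without KO pool 4) and 2 without both doubted pools. The cause of these shifts was not tested.

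Signs of uncalled members changed as follows, none past the threshold, and a value of 0.00 has the other sign before rounding. In KO against WT in input with the replicate block, log2 ratios were -0.01 for Nr3c1, -0.13 for Nr3c2, 0.05 for Fkbp4 and -0.17 for Sgk1. With a pool left out they ran from 0.00 to 0.08 for Nr3c1, -0.08 to 0.14 for Nr3c2, -0.11 to 0.26 for Sgk1, 0.00 to 0.15 for Tsc22d3 and -0.29 to 0.08 for Crhbp. In TRAP they ran from -0.17 to 0.12 for Nr3c2 and -0.13 to 0.00 for Fkbp5, and Crhbp, where admitted, from -0.78 (without WT pool 2) to 0.07 (without KO pool 3). Differences of KO effects ran from -0.01 to 0.18 for Nr3c1, -0.25 to 0.01 for Nr3c2, -0.07 to 0.19 for Fkbp5, -0.20 to 0.03 for Fkbp4 and -1.64 to 0.65 for Crhbp, and were 0.00 for Fkbp5 and 0.07 for Crhbp without both doubted pools. The KO minus WT ratio Nr3c2 to Nr3c1 in input ran from -0.07 to 0.06, and Fkbp5 to Fkbp4 from -0.02 to 0.17 in TRAP and -0.24 to 0.10 in input. Fkbp5 to Fkbp4, TRAP minus input, ran from 0.10 to 0.18, where 5 pools cannot reach 0.05. Depth limits Hsd11b1, Crhr1, Crhr2 and Crhbp, which had at most 35 counts in a TRAP library.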
